A study of Xenopus tropicalis with 9 samples.

Results

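The gut of the adult western clawed frog, Xenopus tropicalis, was represented by a library labelled intestine and a library labelled GI tract, and this pair was set against the male head and the male heart. Of the 9 libraries of the series, these 4 entered the comparison, named by their tissue and sex labels. Both gut libraries came from females and were taken as 2 samples of 1 tissue, although the labels name them differently. The male head and male heart had 1 library each and are different tissues, so they were compared with the gut one by one and were not averaged. The remaining 5 libraries (female head, female heart, female lung, ovary and testes) stayed outside the comparison. The testes and female head were left out because they also hold gut transcripts, a choice that rests on expression values and not on the labels. All animals were adults with no treatment, and no strain or genotype is named in the labels. Gut is female and both comparison tissues are male, so tissue and sex cannot be told apart in the 4 libraries. The labels do not say whether the samples came from separate animals, and p-values therefore measure only the spread between these samples.

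A vertebrate gut digests food in steps. The stomach secretes acid, pepsinogens and chitinase, the pancreas delivers inactive proteases, amylase and lipases into the duodenum, and enzymes anchored on the microvilli of enterocytes complete the digestion before transporters carry sugars, peptides, amino acids and fat into the body. Goblet cells make mucus, enteroendocrine cells release peptide hormones, and a coat of smooth muscle under enteric nerves moves the contents. The identity of the lining is held by transcription factors of the caudal (Cdx), hepatocyte nuclear factor (HNF) and GATA families.

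The libraries held 32671439 counts in intestine, 35044545 in GI tract, 30045813 in male head and 34202200 in male heart, within a range of 27628254 to 35044545 over the 9. A floor of 3 counts stood for 0.0856 to 0.0998 counts per 1000000 in these 4. The labels were checked against marker gene lists, as shares of TPM (transcripts per 1000000). These lists were chosen with earlier results of these data known, so the check is not independent. Eye genes took 0.306% in male head and 0.000431% in male heart, and neuron genes 0.145% and 0.00431%. Cardiac muscle genes took 11.5% in male heart, 0.125% in male head, and 0.00454% and 0.00465% in intestine and GI tract. Brush border genes took 0.488% and 0.779% in intestine and GI tract, and 0.0284% and 0.00441% in male head and heart. Skeletal muscle genes took 9.19% in male head but also 5.51% in male heart, so that list does not separate head from heart. The library labelled intestine also held stomach and pancreas transcripts at levels like those of the GI tract. The GI tract library stood apart from the intestine in genes of other tissues. The 18 tested genes of an oocyte list summed to 210.4 TPM in GI tract, against 3.23 in intestine, 20.7 in male head and 22.6 in male heart. A red cell list summed to 1704 TPM in GI tract and 195.8 in intestine, and a liver list to 317.7 and 125.2. The liver list was highest in male head, at 1056 TPM, of which the gene tf held 810.2, and it summed to 38.55 in male heart. In the test described next, edgeR called 0 oocyte, 0 red cell and 0 liver genes higher in gut than in both male libraries, with 0, 0 and 4 at an unadjusted p under 0.05 in both contrasts, while DESeq2 called 0, 0 and 5. Genes far apart within the gut pair have a wide spread there, so a lack of calls does not show that such transcripts are absent. Fold changes were positive in both contrasts for 16 of 18 oocyte and 21 of 27 liver genes. Of 11 red cell genes 0 were positive in both and 4 were called lower, with a list sum of 10246 TPM in male heart. The part of such cells in other results was not tested. In bulk RNA, fewer cells of a type and less RNA per cell cannot be told apart.

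The first question was which genes set the gut apart from both male tissues. Most tested genes of the pancreas, stomach and brush border lists were called higher in gut, as were 17 of 31 transporter genes and 12 of 32 transcription factor genes. Among genes called lower were 6 of 22 cardiac and 6 of 21 skeletal muscle genes. Counts were tested with edgeR's quasi-likelihood test in a fit with 1 mean each for gut, male head and male heart, and a gene was called when its Benjamini-Hochberg adjusted p was under 0.05 in both contrasts in the same direction. Of 20551 genes tested, 821 (3.99%) were called higher in gut and 478 (2.33%) lower. Against male head alone, 1082 (5.26%) were higher and 1746 (8.5%) lower, and against male heart alone 1961 (9.54%) were higher and 1689 (8.22%) lower. The median log2 fold change of the 821 genes was 6.05 against head and 8.53 against heart, beside 0.01 and 0.14 over all genes tested. Scaling by library totals alone, without TMM (edgeR's trimmed mean scaling), moved the median gene against head to -0.81 and gave 695 higher and 858 lower calls, of which 690 of the higher ones were among the 821.

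The spread in this fit comes from the gut pair, which leaves 1 residual degree of freedom. With all 9 libraries in the fit, where the contrasts use the means of both heads and both hearts, 109 genes were called higher and 57 lower, and all 109 were among the 821. The head mean there includes the female head, which was left out of the comparison for its gut transcripts. In that fit the calls within the gut lists fell to between 0 and 3 a list, with 0 of 22 pancreas genes, 1 of 14 stomach genes, 2 of 23 brush border genes and 3 of 32 transcription factors, and without either gut library it called 0 genes. Against the heart mean alone, the fit of all 9 libraries called 3 of 22 pancreas genes and 6 of 14 stomach genes higher. It also called 7 of 23 brush border genes and 12 of 32 transcription factors higher in that contrast. DESeq2 on the 4 libraries called 1970 genes higher and 1181 lower, 808 of the higher ones among the 821. With the male libraries joined into a group of 2, edgeR called 0 genes, with 1540 higher at an unadjusted p under 0.05 and a lowest adjusted p of 0.0668. An exact permutation test of 2 samples against 2 cannot go below p = 0.333.

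Levels were also described with no test, by asking for at least 10 TPM in the lower gut library and at least 4 times the higher male library. This held for 506 of 30330 genes (1.67%), of which 292 carry a symbol and 214 only a code. Together they took 39.5% of all TPM in intestine and 42.3% in GI tract, against 0.613% in male head and 0.383% in male heart. Of the 506, 188 reached 100 TPM and 47 reached 1000 TPM in the lower gut library. In 50 of them neither male library held a count, and in 145 neither held more than 3. Just inside the limit on level stood il20ra, a cytokine receptor gene, at 10.1 and 11.6 TPM in intestine and GI tract, and just outside it stood the DnaJ family gene dnajc22 at 9.87 and 16.6. At the limit on fold, the phosphatase gene acp5 had a ratio of 4.0 and the cytochrome P450 gene cyp2d6 a ratio of 3.93. The test called 479 of the 506. Both use the same 4 libraries, so this overlap follows largely from the choice and is no separate check. Of the other 27, 12 were more than 4-fold apart between the gut libraries, beside 34 of all 506.

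Of the 15 most abundant genes with a symbol that were called higher in gut, most encode pancreatic enzymes, and the stomach chitinase and a peptide transporter are among the first 4. The trypsinogen gene prss1 stood at 46124 TPM in intestine and 40857 in GI tract (43490 ± 3724, SD, n = 2), against 1.59 in male head and 2.15 in male heart. Its log2 fold change was 16.1 against head (SE 1.55, edgeR adjusted p = 0.00783) and 14.6 against heart (SE 1.48, adjusted p = 0.00665). The gut libraries lay close together and far above both male libraries. The acidic chitinase gene chia, whose enzyme cleaves the chitin of insect prey, stood at 36882 and 50276 TPM in intestine and GI tract and at 1.33 and 3.78 in male head and heart (edgeR adjusted p = 0.0105 and 0.00971). The intestinal peptide transporter gene slc15a1, which carries dipeptides and tripeptides into enterocytes, stood at 8511 and 17361 TPM in the gut libraries and at 1.14 and 0.22 in the male ones (edgeR adjusted p = 0.0112 and 0.00769). These 3 genes were taken as gut markers beforehand, with earlier results of these data known. Their lack of overlap with the male tissues therefore describes the markers and is no separate check of the comparison. In the fit of all 9 libraries none of the 3 was called, at adjusted p of 0.0768 for prss1, 0.0831 for chia and 0.055 for slc15a1 against the heart mean and 0.185, 0.213 and 0.156 against the head mean, which includes the female head.

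**Figure D1:**
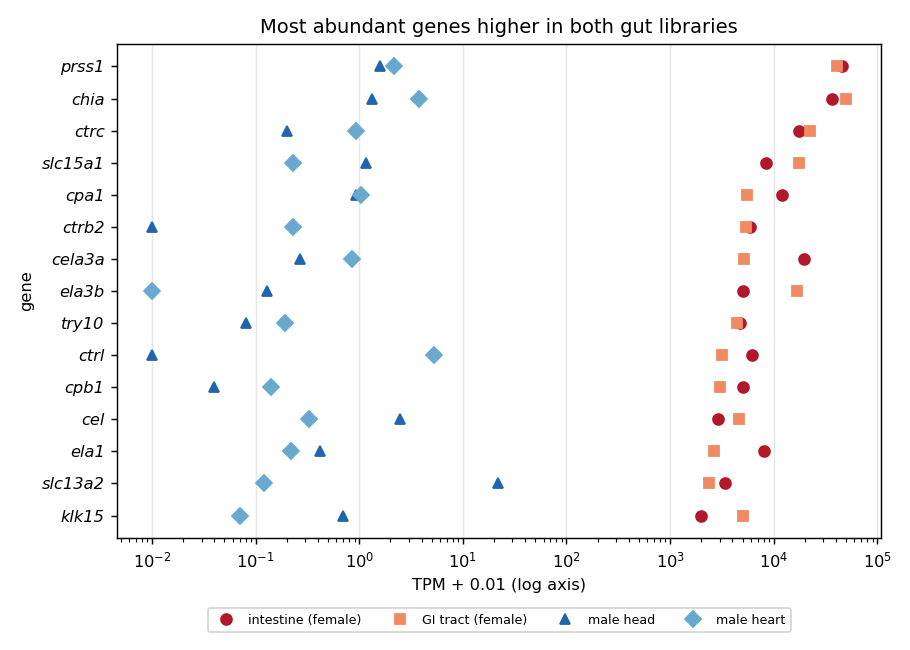
The 15 most abundant named genes called higher in gut, with TPM + 0.01 on a log axis, 1 marker per library and no error bars. All 15 lie at 1995 TPM or more in both gut libraries, and the highest male value is 21.7 TPM, for slc13a2 in male head.

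The exocrine pancreas list had 15 of its 22 tested genes called higher in gut and 0 lower, a share of 68.2% beside the 3.99% over all genes. The 15 include the marker prss1, and this list too was chosen with earlier results known. The list's genes took 11.0% of TPM in intestine and 8.9% in GI tract, and 0.00457% and 0.00122% in male head and heart. The chymotrypsin C gene ctrc stood at 17709 and 22491 TPM in intestine and GI tract and at 0.19 and 0.93 in male head and heart. The carboxypeptidase gene cpa1 stood at 12105 and 5572 TPM in the gut libraries, and cpb1, which encodes a second carboxypeptidase, at 5080 and 3039. The highest male value of the pair was 1.02 TPM, for cpa1 in heart. The pancreatic amylase gene amy2a stood at 4881 and 1701 TPM in gut and at 0.12 and 0.21 in the males (edgeR adjusted p = 0.0114 and 0.00971). Fat digestion was represented by the bile salt lipase gene cel at 2904 and 4668 TPM, the triglyceride lipase gene pnlip at 85.0 and 130.3, the colipase gene clps at 158.2 and 40.6, and the phospholipase gene pla2g1b at 314.4 and 305.0. No count of pla2g1b was found in either male library, so its gut level was at least 838-fold higher, computed from the floor of 3 counts per library. The pancreatic transcription factor gene ptf1a, of the factor list, was also called, at 6.73 and 5.37 TPM in gut and 0.13 and 0 in male head and heart.

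Trypsins, chymotrypsins and elastases form families of similar genes, so their single levels are uncertain where reads could be split between copies. The list genes that were not called include prss3 and ctrb1, which were far above the males but differed strongly within the gut pair. The serine protease gene prss3 stood at 4243 TPM in intestine and 48.2 in GI tract, and at 0.1 and 0.15 in male head and heart (edgeR adjusted p = 0.0935 and 0.0931). The acinar factor gene bhlha15 stood at 5.85 and 5.08 TPM in gut and at 14.9 and 0.03 in male head and heart. Not all lipase genes of the list were high in gut. The gene pnliprp1 was at 2.63 and 2.35 TPM in gut and at 18.7 and 0 in male head and heart. The gene pnliprp2 was at 0.6 and 0.03 TPM in gut and at 0.25 and 0.09 in the males. Neither was called. The hormone gene ins, encoding the insulin of the endocrine pancreas, stood at 47.4 and 57.2 TPM in the gut libraries and at 0 and 0.05 in male head and heart, and passed in both contrasts (edgeR adjusted p = 0.00461 and 0.00447).

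Stomach genes were called in 12 of 14 tested cases (85.7%, beside 3.99% of all genes), with 0 lower. The 12 include the marker chia, so the share is no separate check of the comparison. The identity of 1 of the 12, gif, is unsure, because RefSeq lists that symbol as a synonym of mif, and without it 11 of 13 were called. The list took 4.11% of TPM in intestine and 5.88% in GI tract, most of it chia. Acid secretion was represented by both subunits of the gastric proton pump. The catalytic subunit gene atp4a stood at 391.6 and 491.5 TPM in intestine and GI tract, and the beta subunit gene atp4b at 1194 and 851.0, while neither passed 0.82 TPM in male head and both were at 0 in male heart. Pepsinogen genes were present with different ratios within the gut pair: pga4 stood at 275.7 and 4066 TPM in intestine and GI tract, and pgc, the progastricsin gene, at 74.1 and 89.2. The gastrokine gene gkn1, expressed by the mucous cells of the stomach surface, stood at 1354 and 1717 TPM in gut and at 0.21 and 0 in the males (edgeR adjusted p = 0.00461 and 0.00416). The aspartic protease gene ctse (287.4 and 119.7 TPM in gut) and the stomach junction gene vsig1 (109.6 and 108.7) were called as well. Of the pair not called, the potassium channel subunit gene kcne2 stood at 21.2 and 4.64 TPM in gut and 0 and 0.3 in the males (edgeR adjusted p = 0.0483 and 0.0869). The water channel gene aqp4 was at 0.02 TPM in both gut libraries and 2.32 in male head. Gastrin, the hormone that drives acid secretion, was low, with gast at 0.28 and 0.21 TPM in gut and 0 in both males, and it did not pass the filter on low counts.

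Hydrolases and scaffold proteins of the brush border, the carpet of microvilli on enterocytes, were called higher in 16 of 23 cases and lower in 0. The share called higher was 69.6%, beside 3.99% of all genes. The membrane aminopeptidase gene xpnpep2 stood at 1023 and 1031 TPM in intestine and GI tract and at 15.8 and 6.88 in male head and heart, with a log2 fold change of 7.11 against head (SE 0.78, edgeR adjusted p = 0.0106) and 7.23 against heart (adjusted p = 0.00778). The intestinal alkaline phosphatase gene alpi.1 stood at 585.0 and 1076 TPM in gut and at 0.28 and 0.06 in the males. Both meprin subunits, metalloproteases of the microvilli, were present, with mep1a at 357.5 and 832.7 TPM and mep1b at 553.7 and 598.8, against 0.43 TPM or less in the male libraries. Starch digestion was represented by the maltase-glucoamylase gene mgam, at 278.6 and 669.6 TPM in gut and 0.46 and 0.35 in the males. Structural genes of the microvillus were called too. The actin bundling gene vil1 (villin) stood at 306.1 and 324.3 TPM in gut and at 2.45 and 0 in the males. The protocadherin genes cdhr5 (128.9 and 122.1 TPM) and cdhr2 (27.1 and 58.8), whose products link neighbouring microvilli, did not pass 0.18 TPM in a male library.

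The 7 brush border genes not called had various patterns. The aminopeptidase N gene anpep stood at 169.2 TPM in intestine and 912.3 in GI tract and at 28.2 and 5.51 in male head and heart, and missed the threshold against head (edgeR adjusted p = 0.0751). The trehalase gene treh, for the sugar of insect blood, stood at 40.0 and 92.0 TPM in gut, 2.48 in male head and 24.1 in male heart, and passed against head only (adjusted p = 0.0162 and 0.177). The glutathione-cleaving enzyme gene ggt1 was highest in male head, at 171.0 TPM, against 96.0 and 125.0 in gut. The enteropeptidase gene tmprss15, whose product activates trypsinogen, was low, at 0.75 and 1.4 TPM in gut and 0 and 0.07 in the males (adjusted p = 0.0255 and 0.072). Neprilysin, the endopeptidase encoded by mme, was at 0 and 0.03 TPM in the gut libraries and 5.19 in male head.

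Nutrient and ion transporters were called higher in 17 of 31 cases (54.8%, beside 3.99% of all genes) and lower in 0. The 17 include the marker slc15a1. Without TMM 15 were called higher. After slc15a1, the dicarboxylate transporter gene slc13a2 was the most abundant of the list in its lower gut library, at 3422 and 2388 TPM in intestine and GI tract and at 21.7 and 0.11 in male head and heart. The amino acid exporter gene slc7a7 of the basal membrane stood at 1716 and 2038 TPM in gut and at 17.8 and 6.07 in the males. The neutral amino acid transporter gene slc6a19 stood at 674.0 and 820.0 TPM in gut and at 0.19 and 0 in the males. In each of these genes both gut libraries were above both male libraries.

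Sugar, sterol and bile acid carriers followed. The fructose transporter gene slc2a5 stood at 273.4 and 565.3 TPM in gut and at 0 and 0.03 in male head and heart, and the glucose transporter gene slc2a2 of the basal membrane at 54.5 and 51.6 against 8.06 and 0.35. The sterol export genes abcg5 and abcg8, whose products work as a heterodimer, were both higher in GI tract than in intestine (146.8 against 39.7 TPM for abcg5, 51.0 against 10.8 for abcg8) and were at 0.22 TPM or less in the males. The ileal bile acid transporter gene slc10a2 stood at 1.03 and 4.51 TPM in gut with no count in the males, at least 15.9-fold higher by the floor of 3 counts per library (edgeR adjusted p = 0.0441 and 0.0436). Several transporters missed the threshold in a contrast. The iron exporter gene slc40a1 (ferroportin) stood at 126.9 and 177.0 TPM in gut, 126.1 in male head and 92.9 in male heart (adjusted p = 0.119 and 0.315). The zinc transporter gene slc39a4 stood at 36.0 TPM in intestine and 282.4 in GI tract, with 12.3 in male head (adjusted p = 0.111). The chloride channel gene cftr stood at 3.03 and 3.98 TPM in gut and 3.14 in male head, and was higher only against male heart, where it was at 0 (adjusted p = 0.14 and 0.00463).

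Genes of lipid uptake and lipoprotein assembly were called higher in 11 of 24 cases (45.8%, beside 3.99% of all genes) and lower in 0. At an unadjusted p under 0.05 in both contrasts 16 were higher and 1 lower, and DESeq2 called 15 higher and 1 lower. The intestinal fatty acid binding protein gene fabp2 stood at 1347 and 3156 TPM in intestine and GI tract and at 0.82 and 0.08 in male head and heart (edgeR adjusted p = 0.0076 and 0.00578). The apolipoprotein genes apoa1 (1113 and 3129 TPM), apoa4 (863.6 and 959.8) and apob (66.7 and 300.3) were at 0.97 TPM or less in the males. The gene apoe, also an apolipoprotein gene, was less restricted, at 772.0 and 600.6 TPM in gut, 101.3 in male head and 10.1 in the heart. The ileal bile acid binding protein gene fabp6 stood at 175.5 and 198.7 TPM in gut and at 0 and 0.22 in the males. The vitamin A genes rbp2 (507.9 and 1150 TPM, a retinol binding protein) and bco1 (12.2 and 26.0, the carotene cleaving enzyme) were called as well. Of the genes not called, the cholesterol uptake gene npc1l1 stood at 5.69 TPM in intestine, 85.2 in GI tract, 5.57 in male head and 3.79 in male heart (adjusted p = 0.19 and 0.205), and the fat synthesis gene dgat2 at 57.7, 182.4, 29.8 and 47.9 in the same order (adjusted p = 0.0884 and 0.318). The gene lipc, also not called, was lower in gut, at 0.07 and 0.43 TPM against 9.23 and 3.81 in male head and heart. For rbp4 the levels were 0 TPM in intestine, 76.6 in GI tract, 175.8 in male head and 0.24 in male heart.

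**Figure D2:**
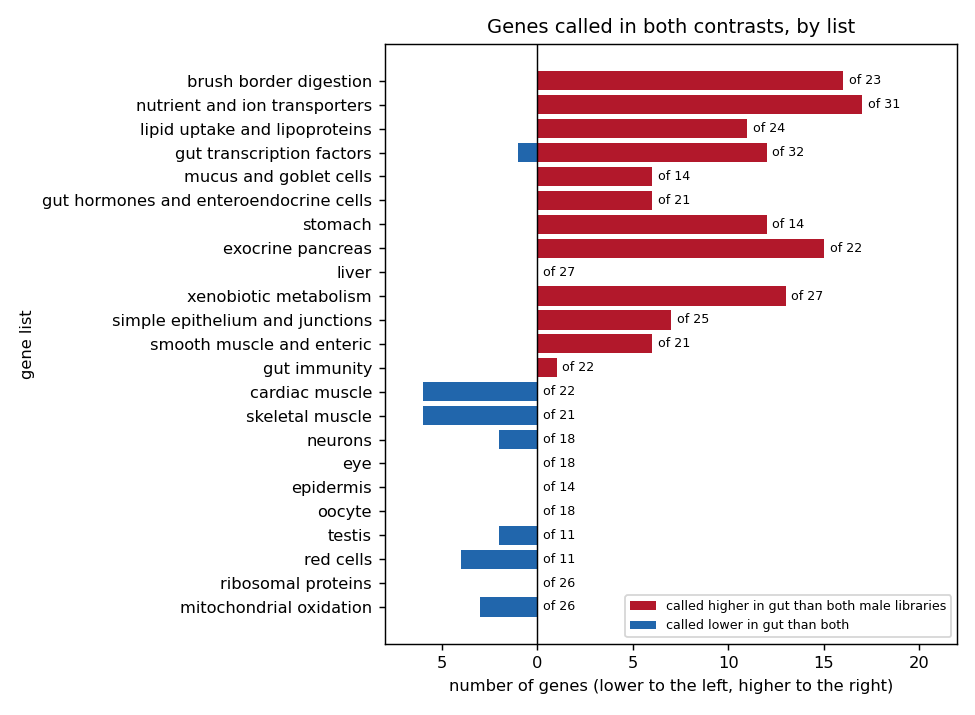
Number of genes in each of the 23 lists called higher (right) or lower (left) in gut than in both male head and male heart, with the number tested after "of". Stomach (12 of 14), brush border (16 of 23) and exocrine pancreas (15 of 22) have the greatest shares called higher. The cardiac and skeletal muscle, red cell, mitochondrial, testis, neuron and transcription factor lists hold genes called lower.

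Transcription factors of gut identity differed in how far head or heart also held them. Of 32 tested, 12 were called higher in gut (37.5%, beside 3.99% of all genes) and 1 lower. The HNF4 genes hnf4g and hnf4a, nuclear receptors of digestive epithelia, stood at 233.7 and 223.2 TPM and at 73.0 and 55.9 TPM in intestine and GI tract. Male levels were 0.22 and 0.03 TPM for hnf4g and 0.01 in each library for hnf4a. The caudal genes cdx1 (49.7 and 42.5 TPM) and cdx2 (30.0 and 52.9), which specify intestine in mammals, were at 0.31 TPM or less in male head and were listed at 0 in male heart. The log2 fold change of cdx1 against head was 8.27 (SE 0.54, edgeR adjusted p = 0.00461), and it was called in the fit of all 9 libraries too (adjusted p = 0.0436 against the head mean and 0.0233 against the heart mean). Other calls were the bile acid receptor gene nr1h4 (38.6 and 32.8) and the secretory lineage gene atoh1 (16.7 and 19.5). The hindgut gene hoxa13 stood at 2.28 TPM in intestine and 10.5 in GI tract with no count in the males, at least 33.7-fold higher by the floor of 3 counts per library (edgeR adjusted p = 0.0334 and 0.0316).

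The 3 GATA genes of the list were called higher than in male head but were not called against male heart. GATA factors also act in cardiac muscle. The levels of gata4 were 47.9 TPM in intestine, 42.4 in GI tract, 0 in male head and 75.4 in male heart (edgeR adjusted p = 0.00461 and 0.21). For gata5 they were 35.8, 68.0, 0.05 and 27.9 TPM in the same order (adjusted p = 0.00584 and 0.306), and for gata6 64.1, 41.8, 1.86 and 114.7 (adjusted p = 0.0087 and 0.143). The opposite held for foxa1, a pioneer factor of endoderm and of other epithelia, at 58.6 and 52.9 TPM in gut, 58.8 in male head and 0.23 in male heart (adjusted p = 0.122 and 0.00418). Other factors shared with the head were the goblet cell gene spdef (32.8 and 15.1 TPM in gut, 38.6 in male head, 0.1 in male heart), the epithelial gene elf3 (23.7 and 39.7, 25.8, 0.07) and klf5 (46.6 and 26.7, 117.0, 4.8). The pancreas and duodenum gene pdx1 was low, at 0.84 and 0.92 TPM in gut with 0 in both males (adjusted p = 0.0648 and 0.0685). The factor called lower was ppargc1a, a coactivator of mitochondrial genes, at 0.71 and 1.48 TPM in gut against 10.8 and 15.9 in male head and heart.

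**Figure D3:**
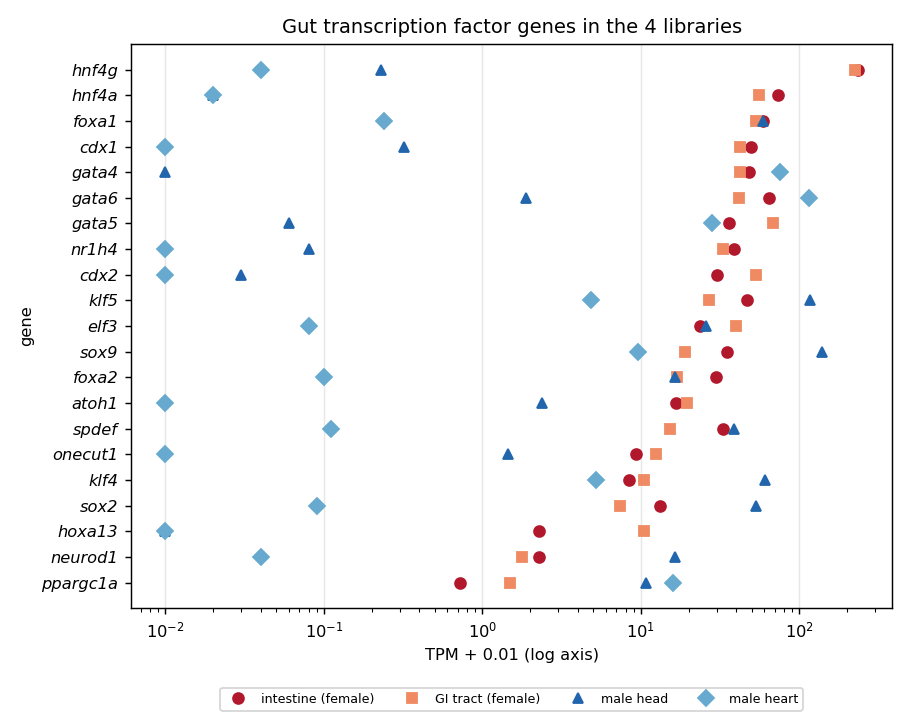
TPM + 0.01 on a log axis for 21 of the 23 gut transcription factor genes that reach 10 TPM in any of the 4 libraries, with 1 marker per library. The HNF4 and CDX genes lie far above both male libraries, gata4, gata5 and gata6 lie beside male heart, and foxa1, elf3 and spdef lie beside male head.

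The mucus and goblet cell list had 6 of 14 genes called higher (42.9%, beside 3.99% of all genes). It includes xpnpep2, which the brush border list also holds, and without that gene 5 of 13 were called. Of these 5, tff1 and muc5ac are also in the stomach list, so the calls of these lists are not separate. The trefoil factor genes tff1 (401.0 and 1025 TPM in intestine and GI tract) and tff2 (342.0 and 740.0), small secreted proteins that protect mucosa, were at 1.27 TPM or less in male head and were listed at 0 in male heart. The lectin gene zg16 of secretory granules stood at 649.3 and 352.6 TPM in gut and at 0.33 and 0 in the males. Mucin genes were also found in the head. The gel-forming mucin gene muc2 stood at 40.0 and 80.9 TPM in gut, 77.8 in male head and 0.01 in male heart (edgeR adjusted p = 0.494 and 0.00522). The stomach mucin gene muc5ac was called, at 9.57 and 10.3 TPM in gut, 5.1 in male head and 0 in male heart (adjusted p = 0.0302 and 0.00416), and muc6 was not, at 20.7 and 2.39 TPM in gut and 0.03 and 0 in the males (adjusted p = 0.0555 and 0.0464). The folding enzyme gene agr2, needed for mucin export in mouse gut, stood at 120.4 and 126.2 TPM in gut and 232.0 in male head.

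The list of gut hormones and enteroendocrine cells had 6 of 21 tested genes called higher (28.6%, beside 3.99% of all genes). Without TMM 5 were called. All 6 were among the list's 10 hormone and neuropeptide genes, the other 11 being granin, enzyme and transcription factor genes. The incretin genes gip and gcg, whose hormones raise insulin release after a meal, differed in how alike the gut libraries were. The levels of gip were 116.4 and 142.2 TPM in intestine and GI tract and 3.75 and 0 in male head and heart, and those of gcg 276.0 and 86.8 against 1.11 and 0. The secretin gene sct, for the hormone that calls for pancreatic bicarbonate, stood at 36.0 and 55.7 TPM in gut with no count in the males, at least 173-fold higher by the floor of 3 counts per library (edgeR adjusted p = 0.00578 and 0.00527). The neuropeptide genes nts (neurotensin, 24.6 and 24.9 TPM) and vip (18.0 and 21.0) were called over lower head levels of 8.0 and 3.98 TPM. Markers that endocrine cells share with neurons were also found in male head. The granin gene chga stood at 119.0 and 113.3 TPM in gut, 65.6 in male head and 0.87 in male heart (adjusted p = 0.0583 and 0.00496). The somatostatin gene sst stood at 101.1 and 59.6, 66.1 and 24.7 TPM in the same order (adjusted p = 0.148 and 0.0889). The neurokinin gene tac1 went the other way against head, at 4.35 and 3.37 TPM in gut, 86.6 in male head and 0.09 in male heart (adjusted p = 0.0242 and 0.0201). So did the granin genes chgb, at 4.2 and 7.76 TPM in gut and 103.6 in male head, and scg2, at 6.39 and 6.88 against 68.3. Both were called lower than in head (edgeR adjusted p = 0.0224 and 0.017). The genes scg3 and scg5 also had lower levels in gut than in male head, without a call (edgeR adjusted p = 0.405 and 0.175).

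Enzymes that process foreign compounds were called higher in 13 of 27 cases (48.1%, beside 3.99% of all genes), or 12 without TMM. The efflux pump gene abcb1 stood at 403.3 and 725.3 TPM in intestine and GI tract and at 7.2 and 27.2 in male head and heart (edgeR adjusted p = 0.0104 and 0.0195). The cytochrome P450 gene cyp4b1 stood at 210.7 and 273.3 TPM in gut and at 8.21 and 0.1 in the males (adjusted p = 0.00714 and 0.00416). The glucuronidation gene ugt1a1 was lower in level, at 15.4 and 9.19 TPM in gut and 0.05 and 0.06 in the males, and was called as well. The gene cyp3a4 was not called, at 172.3 and 77.6 TPM in gut, 59.0 in male head and 36.4 in male heart (adjusted p = 0.101 and 0.131). Of 27 tested liver genes, edgeR called 0 in either direction (4 were higher at an unadjusted p under 0.05 in both contrasts, and DESeq2 called 5). Levels of most plasma protein genes of this list were higher in GI tract than in intestine. The alpha-1-antitrypsin gene serpina1 stood at 0 TPM in intestine and 44.5 in GI tract, while the hemopexin gene hpx went the other way, at 12.8 and 1.04.

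Epithelial and wall genes were found in the head as well. Simple epithelium and junction genes were called higher in 7 of 25 cases (28.0%, beside 3.99% of all genes) and lower in 0. Their median log2 fold change was 5.8 against heart and 0.55 against head, and the latter turned to -0.27 without TMM. Against heart 19 were called higher, where 9.54% of all genes were. With all 9 libraries in the fit, where female heart enters the heart mean, the median against heart was 0.81 and 3 genes in place of 19 were called. The keratin gene krt18 of simple epithelia stood at 552.9 and 867.2 TPM in intestine and GI tract, 125.3 in male head and 2.64 in male heart (edgeR adjusted p = 0.028 and 0.00592), while female heart held 1201 TPM and ovary 288.3. Female heart also held 8707 TPM of the oocyte list, against 22.6 in male heart. The part of such transcripts in the female heart values and in the heart mean was not tested. The gut cadherin gene cdh17 stood at 91.0 and 128.0 TPM in gut and 0.26 and 0 in the males, and the claudin gene cldn18, which seals stomach epithelium, at 176.0 and 132.0 against 0 and 0.69. The pan-epithelial adhesion gene epcam had its highest value in male head. It stood at 139.8 and 88.8 TPM in gut, 534.8 in male head and 1.8 in male heart (edgeR adjusted p = 0.164 and 0.00723), with 284.8 in female heart and 396.7 in ovary. The skin claudin gene cldn1 was lower than in head, at 0.33 and 0.39 TPM in gut against 78.3 (adjusted p = 0.00461).

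Smooth muscle and enteric nerve genes were called higher in 6 of 21 cases (28.6%, beside 3.99% of all genes). Without TMM 5 were called higher and 1 lower. The median log2 fold change of the list against head was 0.06, and -0.76 without TMM. The actin binding gene tagln of smooth muscle stood at 921.2 and 1279 TPM in intestine and GI tract, 62.8 in male head and 51.6 in male heart, with a log2 fold change of 5.21 against head (SE 0.67, edgeR adjusted p = 0.0149) and 4.42 against heart (adjusted p = 0.0154). The smooth muscle myosin gene myh11 stood at 463.2 and 556.6 TPM in gut, 87.1 in male head and 15.04 in the heart. The most abundant gene of the list, the smooth muscle actin gene acta2, was not called, at 9548 and 15449.6 TPM in gut, 2091 in male head and 1822 in male heart (adjusted p = 0.0622 and 0.0903). Of the genes of enteric nerves, vip was called, and uchl1 was not, at 42.0 and 55.3 TPM in gut and higher values in both males. The receptor genes of enteric nerves and pacemaker cells ret (0.87 and 1.23 TPM) and kit (14.4 and 10.3, with 28.6 in male head) were not called.

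Immune genes gave 1 call in 22 (4.55%), near the 3.99% over all genes. That gene, the dual oxidase gene duox2, was the only one of the 821 whose lower gut TPM, 27.9 in intestine against 47.3 in GI tract, did not exceed both male values (37.4 in head and 18.8 in heart). Its counts were 1152 and 2141 in gut and 142 and 30 in male head and heart, so TPM and counts gave different orders for this gene, and its call rests on the counts. The antigen presentation gene cd74 stood at 812.4 and 840.4 TPM in gut, 570.6 in male head and 48.4 in male heart and was higher only against heart (edgeR adjusted p = 0.116 and 0.0156).

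Ribosomal protein genes had positive fold changes with TMM, with library totals alone and on the log2(TPM + 1) scale, but edgeR called none in both contrasts (5 passed at an unadjusted p under 0.05, and DESeq2 called 18). All 26 had positive fold changes in both contrasts, with medians of 2.69 against head and 1.07 against heart (2.68 and 1.86 in the fit of all 9 libraries), and their sum was 8.1% of TPM in intestine and 5.81% in GI tract against 2.98% and 3.13% in male head and heart. Over all genes, 5.26% were called higher against head and 9.54% against heart. Of the ribosomal protein genes, 11 of 26 were called higher against head, and 2 of 26 without TMM. Against heart 0 were called with or without TMM. An example is rpl19 at 5471 and 4852 TPM in gut, 1196 in male head and 1965 in male heart (edgeR adjusted p = 0.0416 and 0.177).

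Genes called lower in gut were led by muscle. Skeletal actin, encoded by acta1, was at 40.7 TPM in intestine and 21.7 in GI tract, against 37424 in male head and 37597 in male heart. Its log2 fold change was -9.59 against head (SE 0.94, edgeR adjusted p = 0.00819) and -10.7 against heart (SE 0.98, adjusted p = 0.00568). The muscle creatine kinase gene ckm stood at 2.79 and 1.45 TPM in gut against 25309 and 17049, and the sarcomere gene tcap at 0.61 and 1.07 against 3781 and 13284. Further genes of high male level were the glycolysis gene pkm (149.3 and 122.7 TPM in gut, 2539 and 1720 in the males) and the matrix protein gene spon2 (2.81 and 4.66, 1431 and 1308). The cardiac and skeletal muscle lists each had 6 genes called lower in both contrasts, of 22 and 21 tested, where 2.33% of all genes were called lower. Red cell genes were called lower in 4 of 11 cases, testis genes in 2 of 11 and neuron genes in 2 of 18. Of 26 mitochondrial oxidation genes 3 were called lower, among them cox6a2, a muscle subunit of cytochrome oxidase, which stood at 0 and 0.09 TPM in gut against 161.6 and 1432. The median of that list was -2.21 against heart, where 19 were called lower (8.22% of all genes were), and 0.68 against head, or -0.14 without TMM. Of the 18 eye genes edgeR called 0 lower in both contrasts, with 2 at an unadjusted p under 0.05 and 1 by DESeq2.

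The next question was how alike the gut libraries were for the genes high in both. Their choice needed at least 10 TPM in the lower gut library, so genes high in only 1 gut library were left out in advance. An example is the apolipoprotein gene apoc2, at 4.72 TPM in intestine and 44.7 in GI tract. The shares below therefore do not describe all genes, and no such share over all genes is given. Of the 506 genes high in both, 349 (69.0%) were within 2-fold of each other, with a median log2 ratio of intestine to GI tract of -0.30 and quartiles of -0.87 and 0.24. More than 2-fold higher in GI tract were 105 genes, and in intestine 52, and more than 4-fold 22 and 12. The gene groups leaned differently in level, with no test. Among genes of this kind, the median log2 ratio was 0.74 for exocrine pancreas, toward the intestine, and -0.88 for brush border, -1.03 for transporters and -1.18 for lipid genes, toward the GI tract. Transcription factors (0.22) and stomach genes (-0.27) lay nearer to equal. This describes 1 library against another and has no replicate check.

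**Figure D4:**
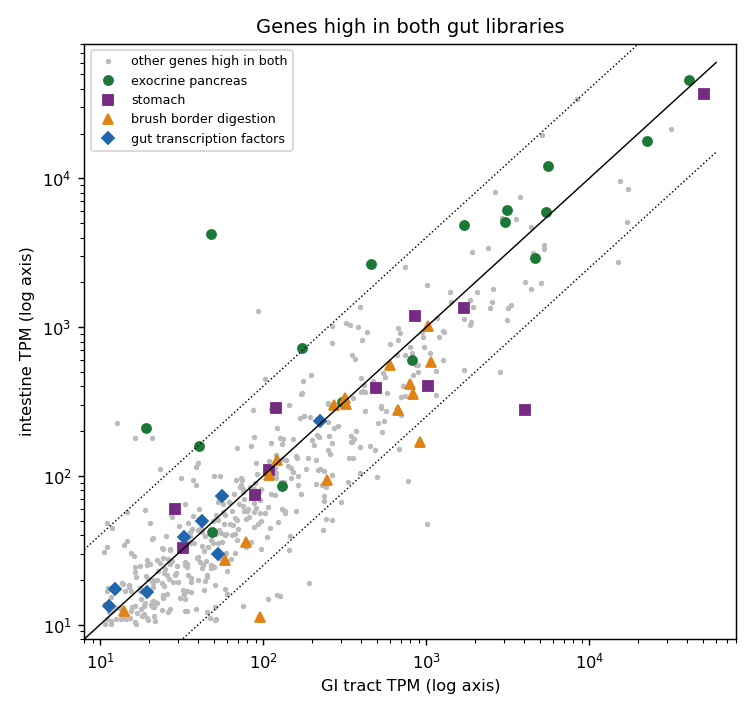
TPM in intestine against TPM in GI tract, both on log axes, for the 506 genes high in both, with the solid line at equal levels and dotted lines at 4-fold. Pancreas genes reach above the upper dotted line on the intestine side, and brush border genes lie mostly below the line of equal levels.

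Pancreas genes led the difference toward the intestine. After prss3, the chymotrypsinogen gene ctrb1 stood at 208.8 TPM in intestine and 19.1 in GI tract, and the elastase genes cela1 at 2651 and 462.1 and cela3b at 724.1 and 173.5. The nuclease gene dnase1 was at 179.3 and 20.8 TPM. Similar enzymes did not all lean that way: prss1 was within 2-fold, and the elastase gene ela3b was higher in GI tract, at 5059 and 16968 TPM. Toward the GI tract, the fatty acid binding gene fabp1 of liver and gut stood at 47.8 TPM in intestine and 1019 in GI tract, with 0.13 and 0.1 in the males, and was not called (edgeR adjusted p = 0.0688 and 0.0664). The pepsinogen gene pga4 had 275.7 and 4066 TPM. The bile acid synthesis gene cyp8b1 stood at 19.0 and 191.3 TPM, the peptidase gene naaladl1 at 11.4 and 96.0, and the glutamine synthetase gene glul at 500.1 and 2835. Most genes of the liver list had higher levels in GI tract, with serpina1, fgg, ahsg and ambp at 0 in intestine and between 7.44 and 44.5 TPM in GI tract. Those higher in intestine were hpx (12.8 and 1.04 TPM in intestine and GI tract) and the asialoglycoprotein receptor gene asgr1 (8.27 and 2.02). By smaller differences, c3 (60.1 and 53.8) and hpd (0.11 and 0.04) were also higher there. The part of liver RNA in these differences was not tested.

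The 506 genes were also set against female tissues that their choice did not use. These are other tissues than gut, and the genes were chosen for high gut levels. No share over all genes is given beside the shares below. The shares therefore do not separate sex from tissue, and the part of sex was not tested. Of the 506 genes, 474 (93.7%) were at least 4 times higher in the lower gut library than in female heart, 441 (87.2%) than in female lung and 440 (87.0%) than in both. With the ovary added, 427 (84.4%) were above all 3 of these female tissues by that margin. The oocyte list summed to 8707 TPM in female heart, 5827 in female lung and 24847 in ovary. The part of such transcripts in these shares was not tested. Among the genes that female lung held at or above the lower gut level were the phosphate transporter gene slc34a2 (571.0 TPM in lung, 32.4 and 97.3 in gut), cldn18 (364.0 in lung) and the mesenchymal factor gene foxf1 (111.7 in lung, 19.4 and 28.1 in gut). In all, 14 of the 506 (2.77%) were as high in lung. They include acta2, at 13119 TPM, and krt18, at 899.5.

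The testes and the female head, left out of the comparison for their gut transcripts, are described here with no test, since that signal is what set them aside. In testes 416 of the 506 genes (82.2%) reached 10 TPM and the genes took 15.8% of TPM. The number reaching 10 TPM was 174 in female head, 83 in female lung, 45 in female heart, 37 in ovary, 70 in male head and 28 in male heart, where the last 2 were limited by the choice of genes. No share over all genes at 10 TPM is given beside these numbers. The libraries differed in genes at 1 TPM or more, with 17791 in testes, 17744 in female head and 9629 in ovary. The median level in testes was 35.9% of that in GI tract (quartiles 30.8% and 42.5%) and 46.7% of that in intestine (29.9% and 70.1%). For the 34 genes more than 4-fold apart in the gut pair, the testes held 21.5% to 94.3% of the GI tract level but 0.612% to 462% of the intestine level. In female head the median level was 4.03% of that in GI tract, and the genes took 1.63% of TPM. Female lung held 2.23% of TPM in these genes, ovary 1.43%, female heart 0.565%, male head 0.613% and male heart 0.383%. In female lung acta2 alone held 13119 of the 22298 TPM in these genes.

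**Figure D5:**
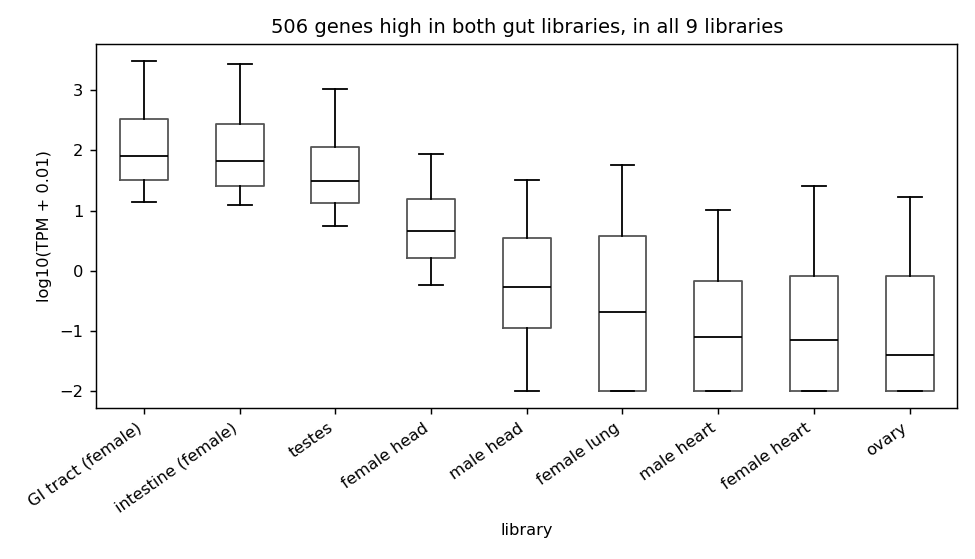
Levels of the 506 genes high in both gut libraries as log10(TPM + 0.01) in each of the 9 libraries, with the box at the quartiles, the line at the median and the whiskers at the 5th and 95th percentiles. The testes box lies next to the gut libraries (median 31.1 TPM), the female head follows (4.51 TPM) and the other 5 libraries have medians under 1 TPM.

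The place of these genes in the genome was read from the gene order of the RefSeq table (assembly UCB_Xtro_10.0, used for order and names only, since the build of the deposited tables is not given in the sources used here). Of the 506, 385 could be placed, and 83 of these (21.6%) had another such gene as their next neighbour, against 696 of 16380 tested genes (4.25%). They formed 33 runs, 11 of them of 3 or more genes. The longest run held 5 genes, including ctrb1, ctrb2 and ctrl, all chymotrypsinogen or chymotrypsin-like genes, with ctrl at 6166 and 3154 TPM in intestine and GI tract and 0 and 5.23 in male head and heart. A run of 4 included the elastase genes cela3a (19525 and 5153 TPM in gut) and ela3b, which leaned to opposite gut libraries, and another run of 4 included gkn1 and gkn1.2 (672.6 and 1058 TPM). Further neighbours were try10 (4683 and 4382 TPM) with prss1, abcg5 with abcg8, and gcg with dpp4, whose enzyme inactivates the incretins. The genes apoa1 and apoa4 stood in 1 run of 3, with a coded gene between them. The neighbours of a tandem family resemble each other, and how far shared reads contribute to these counts was not tested.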

How the data were processed

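Messenger RNA was sequenced from 9 adult Xenopus tropicalis tissue libraries, of which 4 enter the comparison. The labels' protocols name a Qiagen RNA kit and a Kapa kit for mRNA libraries. The submitters' processing notes name RSEM 1.3 and deepTools, with no role, and for the genome build, aligner and gene models the entry is "not given in the sources used here". The authors deposited whole numbers per gene, not scaled for depth, which were treated as estimated counts after rounding, since a TPM above 0 stands beside a 0 in 1272 cells. The authors also deposited TPM values, transcripts per 1000000 within each library, which correct for gene length. Both tables have 30331 rows. The row without a gene name took 0.608% to 1.68% of counts in the 4 libraries and was left out. No column was left unused.

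Counts were tested with edgeR 4.0.16 (glmQLFit and glmQLFTest, TMM scaling, filterByExpr, which kept 20551 genes), with 1 mean each for gut, male head and male heart and Benjamini-Hochberg adjustment over all genes tested. Standard errors were derived from the F statistic. A fitted fold change of a gene with no count in a group depends on edgeR's prior count, so levels or a bound from 3 counts per library are given there. Floors cover counting error only. TMM factors were 1.556 for male head and 0.8293 to 0.8812 for the other 3, so fold changes against head lie above the TPM ratios. Levels were described on TPM with no test. DESeq2 1.42.0, limma 3.58.1 on log2(TPM + 1), other scalings, filters and sample sets were tried as alternatives, and the procedure was tested on simulated data. In these data, drawn with a common spread for all genes, 0 of 50 genes changed 4-fold were recovered. At 16-fold 20 of 50 were recovered, and at 64-fold 48 of 50. A lack of a call therefore does not show equal levels. In the real data 776 of the 821 genes called higher were at least 4-fold in both contrasts, so smaller changes were also called. The simulated shares do not give the recovery of genes with a spread other than the common one.

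The members and the 23 gene lists (578 symbols, 495 found) were chosen with earlier results of these data known. Besides the lists' most abundant called members and described uncalled ones, the text names the 15 most abundant called genes, the 10 with the greatest TPM ratio, the 5 most abundant called lower, the gut markers, and the 5 farthest apart in each direction within the gut pair. Genes on the limits, genes high in female lung and genes of the neighbour runs were named after their values were seen. Motifs in promoters were not searched. Some genes of the lists are counted but not reported here by name.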

Additional observations from a re-analysis of the deposited data

Results flagged for a closer look

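The testes and the female head, outside the comparison, held more transcripts of the 506 genes high in both gut libraries than the male head and male heart did. In testes these genes took 15.8% of TPM, and in female head 1.63%. The comparison libraries of the male head and heart held 0.613% and 0.383%, where the genes were chosen to be low. Female lung held 2.23% and ovary 1.43%, while female heart, at 0.565%, lay below male head. Of the 22298 TPM of these genes in female lung, the smooth muscle actin gene acta2 held 13119. The median level of the 506 genes was 0.195 TPM in female lung and 4.51 in female head. The source of these transcripts was not tested.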

How the results depend on the processing

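Against 821 genes called higher and 478 lower in gut than in both male libraries, DESeq2 called 1970 and 1181. Both counts were 0 with limma on log2(TPM + 1) (905 genes higher at an unadjusted p under 0.05) and with the male libraries joined as 2 against 2. The fit of all 9 libraries called 109 and 57, and the range on leaving out each gut library there was 0 to 0 (842 to 1012 higher at an unadjusted p under 0.05). Library totals without TMM, a choice made after seeing the data, gave 695 and 858. Of the genes called against head (2828) or heart (3650), DESeq2 gave 6227 and 7165, limma 4739 and 0, the 9-library fit 622 and 1129, that fit without either gut library 0 to 0, and library totals 4315 against head. Leaving out a male library, also added later, gave 3506 against heart and 2697 against head. The 506 genes high by level became 268 at 50 TPM, 587 to 720 without either gut library, and 538 to 1058 without either male library, where 1058 is without the head. Leaving out samples also changes which libraries are compared, and otherwise the cause was not tested.

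For 84 named genes, 168 fold changes had 1344 alternative values: 798 kept direction and call, 530 kept direction but lost the call, 15 gained it, and 1 turned, duox2 against male head with limma (-0.0414, adjusted p = 0.954). With 1 residual degree of freedom, calls lean on spread shared across genes. For the gene coded LOC108644507, 1 of the 506, counts of 1 and 11 in intestine and GI tract stood beside 43.2 and 39.8 TPM. No paired analysis was possible because each gut, head and heart group has too few libraries and the labels give them no shared replicate numbers.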
